A study of Mus musculus with 24 samples.

Results

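The genes described are the 3 caudal-type homeobox genes of the mouse, Cdx1, Cdx2 and Cdx4, and its 2 even-skipped genes, Evx1 and Evx2, which were taken by name. They are 5 of the 19409 gene symbols in the deposited cRNA-seq table, each with 1 transcript, and 3 of the 5 (Cdx1, Cdx2 and Evx1) had enough reads to be tested. Calibrated RNA-seq (cRNA-seq) is RNA-seq in which Drosophila SG4 cells are added to the mouse cells before RNA extraction, so that levels can be set per cell. The study compared mouse embryonic stem cells (ESCs) that lose PRC1, the Polycomb complex that ubiquitylates histone H2A through RING1A or RING1B, with ESCs that keep PRC1 but lose its catalytic activity. Both lines are of the E14 strain, each is 1 clone, and both carry Rosa26::ERT2-Cre, a Cre recombinase that works only with 4-hydroxytamoxifen (OHT). PRC1CKO cells (clone B9) are Ring1a-/-; Ring1bfl/fl, so the untreated cells already lack RING1A and OHT removes RING1B. PRC1CPM cells (clone 41) carry Ring1aI50A/D53K throughout, and OHT inverts an exon of Ring1b so that RING1B with I53A/D56K, which is catalytically inactive, replaces the wild-type protein. Each line was taken untreated and after 72 h in 800 nM OHT, in 3 replicates, which gives 4 conditions and 12 libraries. No group of cells with the parental genotype and no OHT-treated group without floxed alleles was used here, so OHT itself and the change of PRC1 cannot be told apart.

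The Cdx and Evx proteins are homeodomain transcription factors best known for building the posterior end of the embryo. Cdx genes are switched on in the primitive streak and tail bud by Wnt, FGF and retinoic acid signals, and their proteins bind enhancers of Hox genes to give trunk and tail tissue its posterior identity. Cdx2 also specifies trophectoderm, the outer layer of the blastocyst, and together with Cdx1 maintains intestinal epithelium. Evx1 and Evx2 lie beside the posterior ends of the HoxA and HoxD clusters, and Evx1 is known for its part in the primitive streak and in spinal cord interneurons. In ESCs such developmental regulators are typical Polycomb targets, held at low levels at promoters rich in CpG.

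The number of reads on genes ran from 14668159 to 27016156 over the 12 libraries. The values below are normalised read counts, the reads on a gene body divided by 1 spike-in size factor per library. The libraries are paired-end, and 77.6% to 82.3% of the values between 1 and 20 reads were even numbers in each library, so that a value of 2 reads is usually 1 fragment. Rnf2, the gene for RING1B, had 1756, 1436 and 1385 normalised reads in the untreated PRC1CKO libraries and 1489, 1565 and 1585 in the OHT-treated ones. In PRC1CPM cells it had 1850, 1659 and 1578 without OHT and 1724, 1295 and 1513 with OHT. Ring1, the gene for RING1A, had 313, 204 and 166 normalised reads in untreated and 281, 251 and 229 in treated libraries of the Ring1a-/- line. Without OHT the PRC1CPM libraries had 179, 182 and 125 of Ring1, and with OHT 161, 111 and 148. Per kb of gene body, untreated Ring1 was at 58.5 in the Ring1a-/- line and 41.6 in PRC1CPM cells, a difference that was not called (limma adjusted p = 0.561), so its reads do not show the deletion. OHT acts on a single exon of Ring1b and the Ring1a deletion takes only the first exons, while the counts are not split by exon, so neither gene checks the labels. The cells had the markers of ESCs in every condition, and the lowest mean of Pou5f1, which encodes OCT4, was 3126 normalised reads, in OHT-treated PRC1CKO cells.

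Cdx1 was the most abundant of the 5 genes and rose in both lines. Its gene body lies on chromosome 18 at 61018862 to 61036199 on the minus strand (GRCm38), has 3 exons, and 10.1% of it is exonic. Reads were counted over the whole body, introns included. In untreated PRC1CKO cells Cdx1 had 375, 109 and 143 normalised reads, and after OHT treatment it had 843, 567 and 581. Its PRC1CPM values were 130.4, 49.0 and 48.8 normalised reads without OHT and 863, 373 and 663 with OHT. In both lines every OHT-treated library lay above every untreated library, a pattern found for 22.1% of all tested transcripts in PRC1CKO and 18.7% in PRC1CPM cells. The mean went from 209 ± 145 to 664 ± 156 in PRC1CKO cells and from 76.1 ± 47.1 to 633 ± 246 in PRC1CPM cells (SD, n = 3).

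On the log2(normalised read count + 1) scale Cdx1 rose by 1.85 in PRC1CKO cells (standard error 0.35, limma with Benjamini-Hochberg adjustment over 16940 transcripts, adjusted p = 3.72e-05). It rose by 3.12 in PRC1CPM cells (standard error 0.35, limma adjusted p = 9.95e-10). The increase in PRC1CPM cells was above that of 99.0% of the tested transcripts, and the increase in PRC1CKO cells above 93.0%. Across all tested transcripts the median log2 difference was 0.12 in PRC1CKO and 0.10 in PRC1CPM cells, so relative to it Cdx1 rose by 1.73 and 3.02. A gene is named called where its fold change was over 1.5 and its adjusted p below 0.05, and over all tested transcripts 16.5% were called higher and 3.09% lower in PRC1CKO cells, and 13.1% higher and 1.4% lower in PRC1CPM cells. Cdx1 was called higher in both lines in all 12 fits that left out 1 library each, and under every other processing tried. An exact permutation test of its means cannot give a two-sided p below 0.1 with 3 libraries against 3, and it gave 0.1 in each line.

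**Figure D1:**
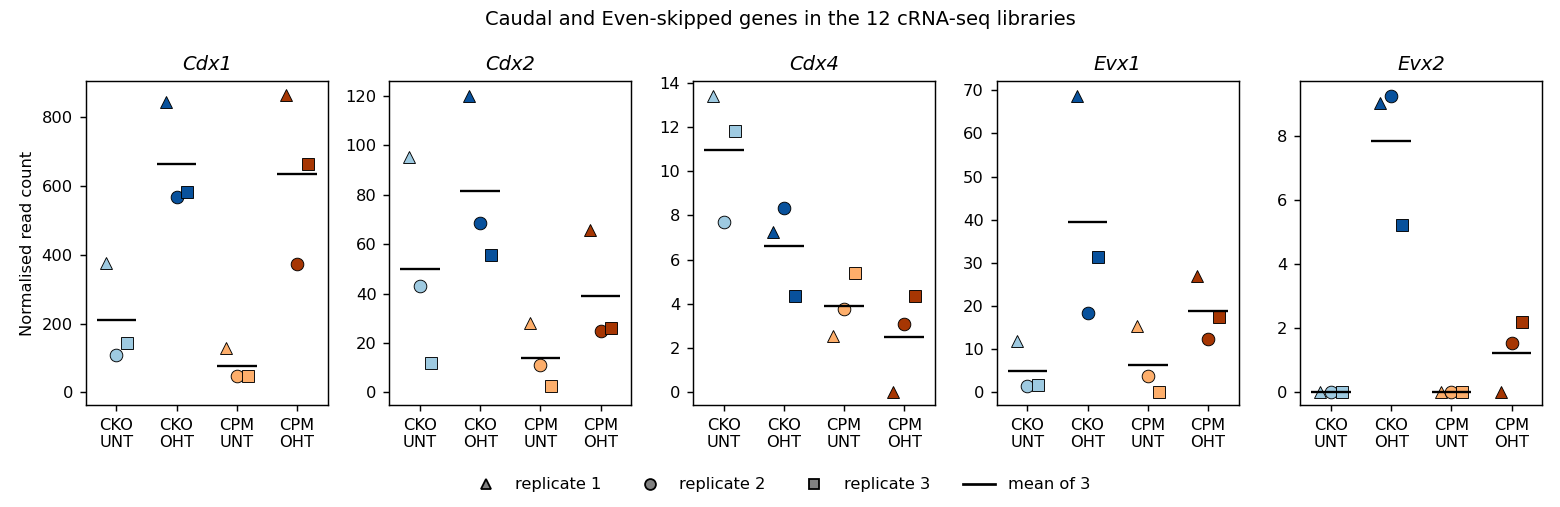
Normalised read counts (vertical axes, linear and different for each gene) of Cdx1, Cdx2, Cdx4, Evx1 and Evx2 in untreated (UNT) and OHT-treated PRC1CKO and PRC1CPM ESCs. Each symbol is 1 library, its shape gives the replicate number and the line is the mean of 3; for Cdx1, Cdx2 and Evx1 the triangle, replicate 1, is the highest in all 4 conditions, while Evx2 is at 0 in all 6 untreated libraries.

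Cdx2, the trophectoderm and intestinal factor, was lower than Cdx1 and its replicates were more spread. The gene lies on chromosome 5 at 147300900 to 147307249 on the minus strand, with 3 exons that make up 33.8% of the body. Untreated PRC1CKO libraries had 95.3, 43.1 and 11.8 normalised reads of Cdx2, and OHT-treated ones had 120.2, 68.5 and 55.8. In PRC1CPM cells Cdx2 had 28.1, 11.3 and 2.71 normalised reads without OHT and 65.6, 24.7 and 26.3 with OHT. In both lines the untreated and OHT-treated libraries overlapped, because replicate 1 of the untreated cells lay above replicates 2 and 3 of the treated ones.

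Cdx2 was called higher in PRC1CPM cells, where its log2 difference was 1.71 (standard error 0.56, limma adjusted p = 0.0272). In PRC1CKO cells the log2 difference was 1.04 with a 95% interval from -0.07 to 2.16, and it missed the threshold (limma adjusted p = 0.22). Relative to the median transcript these differences were 1.61 and 0.93. The call in PRC1CPM cells was lost with edgeR (adjusted p = 0.0619) and DESeq2 (0.334) on the recovered reads, with TMM scaling (0.0783), with a pseudocount of 0.1 (0.0553) and with no filter on low values (0.105). With edgeR and no filter it was kept (0.0153). It was also lost without the untreated replicate 3, which holds 2 reads of Cdx2 (log2 difference 0.93, adjusted p = 0.41), and without the OHT-treated replicate 1 (1.27, 0.227), while without the untreated replicate 1 the log2 difference was 2.41. Cdx2 in PRC1CKO cells was called when the untreated replicate 1 was left out (log2 difference 1.72, limma adjusted p = 0.0254) or when the 6 libraries of that line were fitted alone (0.0359). It was also called with the replicate number as a block, a pairing that the labels do not state. With that block and TMM scaling, or no gDNA-seq correction, it was not called. Without the untreated replicate 3 of that line the log2 difference was 0.26 (limma adjusted p = 0.888).

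Cdx4, a Cdx gene of posterior mesoderm and blood progenitors, was near the limit of detection and did not pass the filter of at least 10 reads in at least 3 libraries. It lies on chromosome X at 103321398 to 103330224 on the plus strand, with 3 exons covering 18.1% of the body. It had 9, 10 and 14 reads in untreated and 8, 9 and 5 in OHT-treated PRC1CKO libraries. PRC1CPM libraries had 2, 4 and 4 reads without OHT and 0, 4 and 4 with OHT. As normalised read counts the PRC1CKO means were 11.0 ± 2.95 without and 6.64 ± 2.05 with OHT, and the PRC1CPM means were 3.92 ± 1.44 and 2.49 ± 2.25 (SD, n = 3). The treated and untreated libraries overlapped in both lines. With no filter on low values limma did not call Cdx4 in either line (adjusted p = 0.573 and 0.552), and these few reads do not show whether its level changed.

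Evx1, the even-skipped gene beside Hoxa13, rose in both lines from a few reads. The gene lies on chromosome 6 at 52313498 to 52318378 on the plus strand, with 3 exons that cover 58.9% of its body. Evx1 had 8, 2 and 2 reads in untreated PRC1CKO libraries and 76, 20 and 36 after OHT, which are 11.9, 1.54 and 1.69 against 68.7, 18.5 and 31.4 as normalised read counts. The PRC1CPM libraries had 12, 4 and 0 reads without OHT and 28, 16 and 16 with OHT, or 15.3, 3.77 and 0 against 27.0, 12.4 and 17.5 normalised. In PRC1CKO cells every treated library lay above every untreated one, while in PRC1CPM cells the groups overlapped because untreated replicate 1 lay above treated replicate 2. The log2 difference was 2.99 in PRC1CKO cells (standard error 0.71, limma adjusted p = 0.00102) and 2.16 in PRC1CPM cells (standard error 0.71, limma adjusted p = 0.0286). Relative to the median transcript these were 2.87 and 2.06.

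The PRC1CKO call of Evx1 was kept in all 12 fits without 1 library and under every other processing tried, and its log2 difference was 3.76 without the untreated replicate 1. With a pseudocount of 0.1 the log2 difference of Evx1 was 3.39 in PRC1CKO cells (limma adjusted p = 0.0316). In PRC1CPM cells it was then 3.32 (limma adjusted p = 0.0461). The PRC1CPM call was lost with edgeR (log2 difference 1.57, adjusted p = 0.135) and DESeq2 (1.58, 0.213). It was lost with TMM scaling (2.09, 0.0681) and with no filter on low values (2.16, 0.0685). It was also lost without untreated replicate 3 (log2 difference 1.11, adjusted p = 0.444), treated replicate 1 (1.88, 0.152) or treated replicate 2 (2.42, 0.0504). Without untreated replicate 1 the log2 difference of Evx1 was 3.13. An antisense transcript, 5730457N03Rik (Evx1os), starts inside Evx1 and overlaps its first 1335 bases. It had 2, 0 and 2 reads in untreated and 32, 35 and 28 in OHT-treated PRC1CKO libraries. In PRC1CPM cells it had 0, 6 and 0 reads without and 24, 28 and 18 with OHT, so that its treated and untreated libraries did not overlap in either line. Its log2 difference was 3.74 in PRC1CKO cells (limma adjusted p = 3.67e-05) and 3.58 in PRC1CPM cells (limma adjusted p = 0.000121). The library kit marks strand, but the strand setting of the counting is not given in the sources used here, so reads of Evx1 and of this antisense transcript in the shared stretch cannot be told apart.

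Evx2, the even-skipped gene beside Hoxd13, was at 0 reads in all 6 untreated libraries. It lies on chromosome 2 at 74655616 to 74659419 on the minus strand, and 37.5% of its body is exonic, in 3 exons. After OHT treatment it had 10, 10 and 6 reads in PRC1CKO and 0, 2 and 2 reads in PRC1CPM libraries. In PRC1CKO cells all 3 treated libraries therefore lay above the untreated ones, and the exact permutation p of 0.1 is the smallest that 3 against 3 can give. A count of 0 allows up to 3 fragments, or 6 reads, over the 3 libraries of a group. Against that floor the level of Evx2 after OHT in PRC1CKO cells was 4.10-fold higher. This value takes the reads after OHT as exact and leaves out the spread between libraries, so it is no strict lower limit. In PRC1CPM cells the 4 reads found after OHT are under the same floor and no fold is given. Evx2 missed the filter on low values, and with no such filter it was called higher in PRC1CKO cells by limma (adjusted p = 0.000128) and by edgeR (0.00416), but not in PRC1CPM cells (limma adjusted p = 0.313).

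By level per kb of gene body, Cdx1 ranked first and Cdx2 second in all 4 conditions. In untreated PRC1CKO cells the means were 12.1 normalised reads per kb for Cdx1, 7.89 for Cdx2, 1.24 for Cdx4, 1.03 for Evx1 and 0 for Evx2. Cdx1 and Cdx2 overlapped there, as did Cdx4 and Evx1. After OHT treatment of that line Cdx1 stood at 38.3 per kb, clear of Cdx2 at 12.8, and Cdx2 overlapped Evx1 at 8.10. Evx2 at 2.06 per kb then lay above Cdx4 at 0.752, with no overlap. In untreated PRC1CPM cells the order was Cdx1 (4.39 per kb), Cdx2 (2.21), Evx1 (1.31), Cdx4 (0.444) and Evx2 (0), and each of the first 4 overlapped its neighbour in the order. In OHT-treated PRC1CPM cells Cdx1 (36.5 per kb) was clear of Cdx2 (6.13), Cdx2 overlapped Evx1 (3.89), and Evx2 (0.328) overlapped Cdx4 (0.282). Of the summed level per kb of the 3 Cdx genes, Cdx1 made up 56.9% before and 73.8% after OHT in PRC1CKO cells, and 62.3% and 85.1% in PRC1CPM cells. Because the bodies hold introns in different shares, these levels compare gene bodies and not mature mRNAs.

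Of the 3 tested genes, Cdx1 and Evx1 were called higher after OHT in PRC1CKO cells and Cdx1, Cdx2 and Evx1 in PRC1CPM cells, with none called lower. These counts stand beside the 16.5% and 13.1% called higher over all transcripts. With TMM scaling, which sets libraries by their typical genes and not by the spike-in, the calls over all transcripts were 2845 higher and 1133 lower in PRC1CKO cells in place of 2787 and 524, and 2396 and 595 in place of 2226 and 237 in PRC1CPM cells. TMM took the median over all transcripts to 0.00 in PRC1CKO and -0.01 in PRC1CPM cells, and the Drosophila size factors uncorrected by gDNA-seq took it to -0.04 and 0.39. The log2 differences of Cdx1, Cdx2 and Evx1 after OHT kept their direction in both lines on each of these scales. In these bulk libraries, fewer cells that express a gene and less of its RNA per cell cannot be told apart.

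The promoters of the 4 genes Cdx2, Cdx4, Evx1 and Evx2 are shown because Polycomb complexes of ESCs are found at CpG-rich promoters. Each is the 250 bases before the RefSeq start site (GRCm38.p6), 5′ to 3′ on the strand of the gene, with every CpG in capitals. The window of Cdx2 is chr5:147307250-147307499 on the minus strand, that of Cdx4 is chrX:103321148-103321397 on the plus strand, that of Evx1 is chr6:52313248-52313497 on the plus strand and that of Evx2 is chr2:74659558-74659807 on the minus strand.
Cdx2: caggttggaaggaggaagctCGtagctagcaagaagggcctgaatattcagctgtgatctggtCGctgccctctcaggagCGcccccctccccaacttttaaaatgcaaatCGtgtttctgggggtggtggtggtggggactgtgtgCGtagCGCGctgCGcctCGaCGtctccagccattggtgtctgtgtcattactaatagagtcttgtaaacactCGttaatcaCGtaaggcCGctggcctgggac
Cdx4: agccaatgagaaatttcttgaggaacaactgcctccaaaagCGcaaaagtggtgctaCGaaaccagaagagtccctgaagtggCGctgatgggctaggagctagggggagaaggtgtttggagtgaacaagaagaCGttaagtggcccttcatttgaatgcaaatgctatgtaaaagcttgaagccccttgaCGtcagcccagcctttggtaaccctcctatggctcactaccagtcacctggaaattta
Evx1: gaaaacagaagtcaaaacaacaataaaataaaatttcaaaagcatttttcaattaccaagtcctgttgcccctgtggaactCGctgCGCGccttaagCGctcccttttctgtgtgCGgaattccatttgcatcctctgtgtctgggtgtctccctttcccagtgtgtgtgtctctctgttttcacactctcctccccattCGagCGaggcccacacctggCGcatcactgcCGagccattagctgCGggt
Evx2: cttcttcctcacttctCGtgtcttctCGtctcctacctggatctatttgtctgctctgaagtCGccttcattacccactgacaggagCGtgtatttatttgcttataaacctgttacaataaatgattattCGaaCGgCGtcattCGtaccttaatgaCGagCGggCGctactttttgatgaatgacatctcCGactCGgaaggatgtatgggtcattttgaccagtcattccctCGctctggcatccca

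The Evx2 window holds 14 CpGs, that of Cdx2 13, that of Evx1 10 and that of Cdx4 5. How these numbers relate to the response to OHT was not tested. The median of 32851 RefSeq promoters over the same 250 bases is 6. The share of G and C is 55.2% for Cdx2, 48.4% for Cdx4, 49.6% for Evx1 and 45.6% for Evx2, against a median of 52.4%, so the number of CpGs is not ordered as the G and C content is. The letters TTTTAT, the AT-rich core of the sites that caudal-type proteins bind, were searched on both strands. They occur at 2 places in the Evx1 window and at none in the other windows, and 17.0% of all promoters hold them at least once. The E-box CACGTG occurs in none of the windows and in 6.02% of promoters. The start site of Evx2 in RefSeq lies 138 bases upstream of the deposited one, while those of Cdx2, Cdx4 and Evx1 coincide.

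The difference between the lines was examined in untreated cells, which ask what the constitutive alleles do, and after OHT, which sets PRC1 without catalysis against no PRC1. In untreated cells Cdx1 was called lower in PRC1CPM than in PRC1CKO cells, by a log2 difference of -1.40 (standard error 0.35, limma adjusted p = 0.0148). Over all transcripts 2.21% were called higher and 0.478% lower in untreated PRC1CPM cells. The Cdx1 values overlapped, since replicate 1 of PRC1CPM at 130.4 lay above replicate 2 of PRC1CKO at 109. Cdx2 had a log2 difference of -1.79 with a 95% interval from -2.91 to -0.67 and missed the threshold (limma adjusted p = 0.0666). Evx1 differed by -0.06 (95% interval -1.48 to 1.36), and with edgeR the difference was 0.58. Of Cdx4, all 3 untreated PRC1CKO libraries lay above all 3 untreated PRC1CPM libraries, as for 2.55% of tested transcripts, with 33 reads against 10 in all and an exact permutation p of 0.1, the smallest possible.

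The untreated difference of Cdx1 lost its call with DESeq2 (adjusted p = 0.167), with no filter on low values (0.0826), without PRC1CKO untreated replicate 1 (0.0909) and without PRC1CPM untreated replicate 3 (0.0956). Without PRC1CKO untreated replicate 1 the log2 difference was -0.87. That of Cdx2 ran from -2.57 without PRC1CKO untreated replicate 3 to -1.002 without PRC1CPM untreated replicate 3. It was -1.11 without PRC1CKO untreated replicate 1 and -2.49 without PRC1CPM untreated replicate 1. It was called in 6 of the 12 fits that left out 1 library and without the gDNA-seq correction of the spike-in (adjusted p = 0.0046). The scale also sets the balance of the calls over all transcripts, which were 374 higher and 81 lower as deposited, 745 and 305 under TMM scaling, and 130 and 148 when the gDNA-seq correction was not used. Each line is 1 clone, so a difference between clones and one between genotypes cannot be told apart.

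After OHT treatment none of the 3 genes was called different between the lines, where 1.25% of transcripts were called higher and 0.218% lower in PRC1CPM cells. Cdx1 was at 633 ± 246 normalised reads in PRC1CPM and 664 ± 156 in PRC1CKO cells (SD, n = 3), a log2 difference of -0.13 with a 95% interval from -0.82 to 0.57. Its sign turned without the gDNA-seq correction, where the difference was 0.04. Evx1 differed by -0.89 (95% interval -2.31 to 0.53) and Cdx2 by -1.12 (95% interval -2.24 to 0.00, limma adjusted p = 0.455). Evx2 had 4 reads in PRC1CPM and 26 in PRC1CKO cells after OHT, a ratio of 0.158 after scaling each group by its size factors, with an exact binomial 95% interval from 0.0173 to 0.699. The interval takes 2 reads as 1 fragment and covers counting error only, and the exact permutation p over libraries was 0.1. With no filter on low values this difference of Evx2 was not called by limma (adjusted p = 0.0661) or edgeR (0.306). Over all transcripts the calls after OHT were 212 higher and 37 lower as deposited, 524 and 261 under TMM scaling, and 441 and 21 when the gDNA-seq correction was not used.

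The interaction of line and treatment tests whether OHT changed a gene by a different amount in the 2 lines, and 0.0236% of transcripts were called. For Cdx1 the increase in PRC1CPM cells exceeded that in PRC1CKO cells by 1.27 on the log2 scale (95% interval 0.28 to 2.26), with a limma adjusted p of 1. In the 12 fits that left out 1 library each, this Cdx1 interaction ran from 0.74 to 1.74 and was not called. With the replicate number as a block, a pairing that the labels do not state, it was called. The same interaction compares the Cdx1 difference between the lines of -1.40 without OHT with that of -0.13 after it. All these comparisons share libraries, so they are not independent of each other. For Cdx2 the interaction was 0.67 (95% interval -0.92 to 2.25) and for Evx1 it was -0.83 (95% interval -2.84 to 1.18), both with a limma adjusted p of 1. The intervals leave the size of any difference in response wide.

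**Figure D2:**
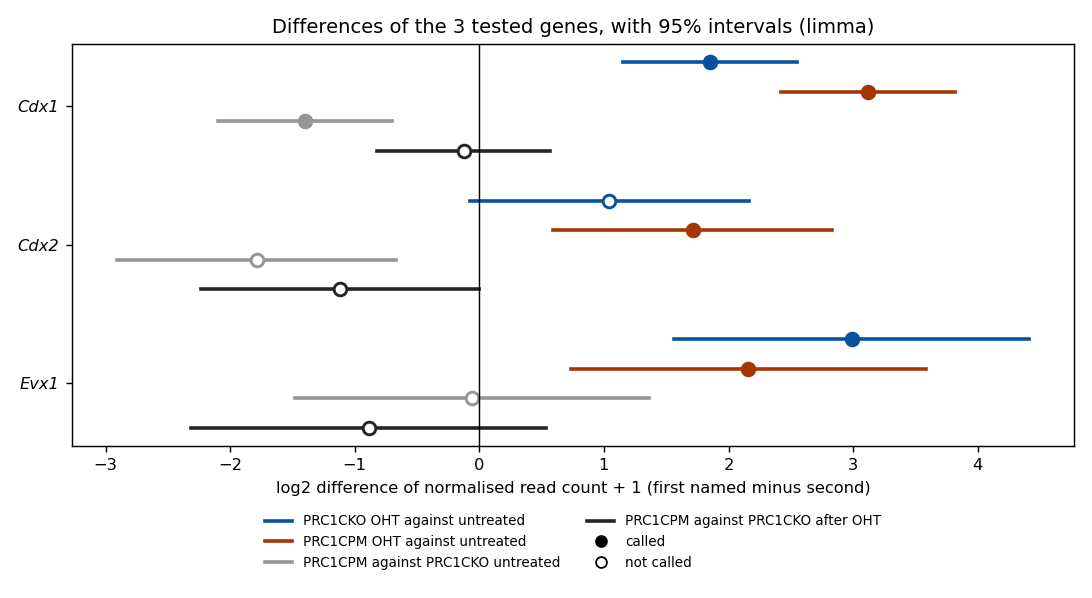
Log2 differences of normalised read count + 1 (horizontal axis) of Cdx1, Cdx2 and Evx1 in 4 comparisons, first named condition minus second, with 95% intervals from limma. Filled points passed both thresholds, 0.05 for the adjusted p and 1.5 for the fold change; Cdx1 was called in 3 of the 4 comparisons, while all 3 intervals for the lines after OHT reach or cross 0.

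Replicate 1 had the highest value of Cdx1, of Cdx2 and of Evx1 in 4 of 4 conditions, with the deposited scale, with TMM and without the gDNA-seq correction. Over all tested transcripts, replicate 1 lay above the mean of the other replicates by a median of 0.54 (log2) in untreated PRC1CKO, 0.15 in treated PRC1CKO, 0.35 in untreated PRC1CPM and 0.44 in treated PRC1CPM cells. For Cdx1 this excess was 1.58, 0.55, 1.40 and 0.79 in the same order. For Cdx2 it was 2.02, 0.95, 2.11 and 1.33, and for Evx1 it was 2.30, 1.47, 2.90 and 0.83. Replicate 1 was also the highest in 4 of 4 conditions by the summed level per kb of the primitive streak, trophectoderm, primitive endoderm, posterior Hox, spinal cord interneuron and neighbour lists and of Rnf2 with Ring1. It was the highest in 3 of 4 conditions for the posterior inducers and partners, in 2 for the pluripotency and in 1 for the intestinal list. Some genes stand in more than 1 list, such as Eomes, Lhx1, Foxa2, T, Wnt3, Fgf8, Hoxa13 and Hoxd13, so the lists are not separate observations. The summed level of the 9 measured streak genes was 70.9 normalised reads per kb in replicate 1 against 29.1 and 19.9 in replicates 2 and 3 of untreated PRC1CKO cells, and 127 against 83.3 and 102 after OHT. In PRC1CPM cells it was 89.3 against 43.0 and 30.1 without OHT and 178 against 80.1 and 126 with OHT. Eomes, a T-box factor, was the most abundant of them per kb, and Gsc, Mesp1 and Lhx1 were at 0 in at least 1 library. The part of these differences between libraries in the Cdx and Evx levels was not tested. With the 4 libraries of replicate 1 left out together, Cdx1 and Evx1 kept their calls in both lines, and Cdx2 in PRC1CPM cells (limma adjusted p = 0.0365).

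Cdx1, Cdx2 and Cdx4 belong with Gsx1, Gsx2 and Pdx1 to the ParaHox genes, relatives of the Hox genes, of which Gsx1, Pdx1 and Cdx2 share a cluster. The 5 ParaHox genes tested include Cdx1 and Cdx2 themselves. Of the 5, 3 were called higher in PRC1CKO cells (Cdx1, Pdx1 and Gsx1) and 4 in PRC1CPM cells, where Cdx2 was added. Over all tested transcripts 16.5% and 13.1% were called higher. The medians of the 5 were 1.85, which is the value of Cdx1, and 2.26, which is that of Gsx1 (log2). Pdx1, the pancreatic homeobox factor, had 2, 4 and 2 reads in untreated and 37, 20 and 25 in treated PRC1CKO libraries. In PRC1CPM cells Pdx1 had 2, 2 and 0 reads without and 25, 21 and 14 with OHT, so the groups were apart in both lines. Its log2 differences were 2.82 and 3.14 (limma adjusted p = 0.000676 and 0.000238). Gsx1, a forebrain and interneuron factor, rose by 2.05 and 2.26 (limma adjusted p = 0.0238 and 0.0146), while its relative Gsx2 had differences of 0.26 and 0.60 and was not called. Within its cluster Cdx2 thus had a smaller log2 difference than Pdx1 and Gsx1 in each line, a difference between genes that was not tested.

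The genes within 150 kb of each start site, a distance chosen after the values were seen, were counted for the 5 loci. Over all tested transcripts 16.5% were called higher in PRC1CKO and 13.1% in PRC1CPM cells. Around Evx1, 11 of 13 tested genes were called higher in PRC1CKO and 13 of 13 in PRC1CPM cells, with medians of 3.92 and 3.15 (log2). The 13 include the antisense transcript 5730457N03Rik, whose reads in the stretch shared with Evx1 cannot be told apart from those of Evx1. They are mostly HoxA genes, and Hoxa13, the nearest of them at 52617 bases upstream, was at 0 reads in untreated PRC1CKO cells and at a mean of 29.7 normalised reads after OHT, and it went from 1.85 to 25.4 in PRC1CPM cells (limma adjusted p = 5.89e-08 and 0.000133). In each line 3 of the 13 were at 0 in every untreated library, and with those at their lower bound the medians were 3.83 and 3.15. Around Evx2, 10 of 11 were called higher in each line, with medians of 3.97 and 2.89, or 2.52 in PRC1CPM cells with Hoxd12 at its lower bound. Hoxd13, a limb and genital Hox gene 8890 bases upstream of Evx2, went from 13.2 to 359 normalised reads in PRC1CKO and from 18.6 to 182 in PRC1CPM cells. Lnpk, a gene for an endoplasmic reticulum protein on the other side of Evx2, was the 1 gene there not called, at 0.02 and -0.08.

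Around Cdx2, 4 of 6 tested genes were called higher in each line (medians 1.97 and 1.69), among them Flt3, a haematopoietic receptor, at 1.89 and 1.66. Pan3, a deadenylase subunit with 4284 normalised reads in untreated PRC1CKO cells, was not called (0.03 and 0.19). Around Cdx1, 1 of 5 was called higher in each line (medians 0.53 and 0.62), namely Arsi in PRC1CKO and Camk2a in PRC1CPM cells. That count is near the share called higher over all tested transcripts (16.5% and 13.1%). Pdgfrb, the growth factor receptor gene 8950 bases upstream of Cdx1, had differences of 0.53 and 0.62 and was not called. Slc6a7, on its other side, had -0.26 and 0.10. Around Cdx4 none of 5 was called higher, Chic1 had -0.26 and -0.23, Tsx had 0.67 and 0.06, and 4930519F16Rik fell by 1.65 and 1.23 (log2). A hand-picked list of neighbours gave 5 of 12 tested called higher in PRC1CKO and 6 of 12 in PRC1CPM cells, with none lower and medians of 0.71 and 0.76. That list leaves out 4930519F16Rik, which fell and lies nearer to Cdx4 than the listed Tsx, and it holds Hibadh (-0.19 in each line, not called), which is not in the 150 kb window of Evx1. Genes in a window share a locus, so these counts describe the loci and are no test.

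**Figure D3:**
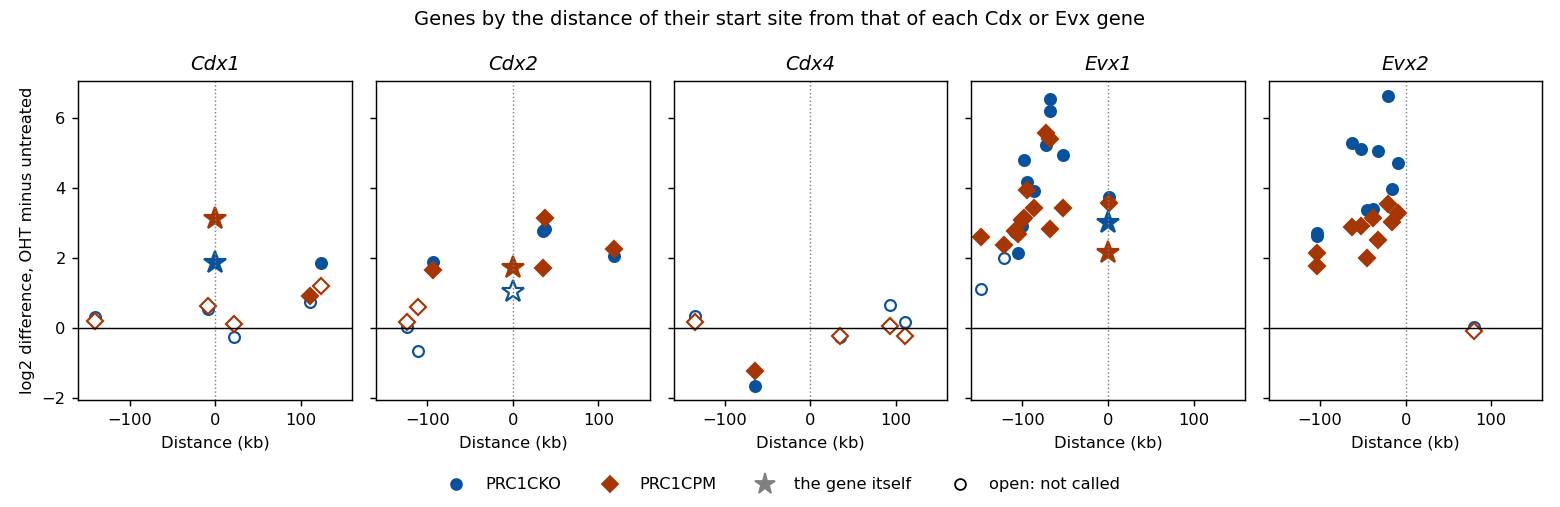
Log2 difference of OHT-treated against untreated cells (vertical axis) of tested genes within 150 kb of the start site of each Cdx or Evx gene, by the distance of their start sites in kb, negative upstream in the direction of the gene. Blue circles are PRC1CKO and brown diamonds PRC1CPM, stars are the gene itself (Cdx4 and Evx2 were not tested) and open symbols were not called; called neighbours fill the upstream side of Evx1 and Evx2.

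Among the signals and partners known to act with Cdx genes in the tail bud, 9 of 19 tested were called higher and 3 lower in PRC1CKO cells, and 9 higher and 2 lower in PRC1CPM cells, with medians of 1.01 and 1.10 (log2). The largest called change in PRC1CKO cells was that of Wnt5a, a non-canonical Wnt ligand of the tail bud, at 2.57 (limma adjusted p = 7.69e-06). In PRC1CPM cells it was that of Wnt3a, the Wnt ligand that activates Cdx genes in the streak, at 2.80 (limma adjusted p = 2.83e-05). Aldh1a2, which makes retinoic acid, rose by 2.42 and 2.00, and T (brachyury), the streak factor, by 1.88 and 1.51. Fgf4, the most abundant gene of the list per kb, fell by 1.06 and 0.85, and the Notch ligand Dll1 fell by 1.17 and 1.43. Fgf8, an FGF of the streak, had differences of 0.41 and 0.55 and was not called, and Msgn1, a paraxial mesoderm factor, had too few reads to be tested.

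Hox genes are known targets of Cdx proteins, and the list named posterior Hox here also holds central ones such as Hoxa5 and Hoxb8. Of this list 23 of 25 tested genes were called higher in PRC1CKO and 20 of 25 in PRC1CPM cells. None was called lower, and the medians were 3.38 and 2.78 (log2). With the 2 genes of each line that were at 0 in every untreated library at their lower bound, the medians were 3.38 and 2.52. The largest called changes were those of Hoxd11 in PRC1CKO cells, at 6.64, and of Hoxa10 in PRC1CPM cells, at 5.57. Hoxd13 was the most abundant per kb. Hoxb9 had differences of 0.11 and 0.24 and was not called in either line. Hox genes were tested in their own right here, and whether they follow Cdx levels was not tested.

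Marker lists were also counted for the tissues in which Cdx2, Cdx1 and the Evx genes act, and differences between the lists were not tested. Beside the counts of these and the earlier lists stand the 16.5% called higher over all transcripts in PRC1CKO and 13.1% in PRC1CPM cells. Of 11 tested trophectoderm genes, 5 were called higher and 1 lower in PRC1CKO cells (median 0.98). In PRC1CPM cells 3 were called higher and none lower (median 0.45). When the gDNA-seq correction was not used, 4 were called higher and 1 lower in PRC1CKO cells (median 0.82). On that scale 5 were called higher and none lower in PRC1CPM cells (median 0.74). Gata3, a trophectoderm factor, had the largest called change in each line (3.26 and 2.02), and Tfap2c, the most abundant per kb, fell by 0.66 in PRC1CKO cells and was not called in PRC1CPM cells (0.36). Elf5, a defining trophoblast stem cell factor, was too low to be tested, with means of 3.02 to 7.27 normalised reads. The summed level of the 12 measured trophectoderm genes went from a mean of 313.3 to 349.7 normalised reads per kb in PRC1CKO cells and from 281 to 403 in PRC1CPM cells, and it was highest in replicate 1 in 4 of 4 conditions. The part of trophectoderm-like cells in the Cdx2 level was not tested.

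Of 7 tested genes of the intestinal epithelium, 2 were called higher in each line, Lgals4 and Ihh, and the medians were -0.25 and 0.03, the latter -0.07 with TMM. Lgals4, a galectin and the most abundant of the list per kb, rose by 2.65 and 2.17, and Ihh, the hedgehog ligand of the gut, by 1.82 and 3.40. Vil1, which encodes villin, had differences of -0.55 and -0.10 and was not called. Cdh17 and Sis were too low to be tested, and Fabp2 had a mean of 0 in 3 of the 4 conditions. Of 11 tested spinal cord interneuron genes, 10 were called higher in PRC1CKO and 8 in PRC1CPM cells, with none lower and medians of 3.74 and 2.87. Pax3, a dorsal neural tube factor, had the largest change in each line (5.97 and 4.03), while Dbx2, a progenitor factor of the V0 domain, had differences of -0.01 and 0.10 and was not called. Gata2 was the most abundant of them per kb and was called in PRC1CKO cells alone (1.43, against 0.73 in PRC1CPM cells).

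Of 8 tested primitive streak genes, 5 were called higher in PRC1CKO and 6 in PRC1CPM cells, with medians of 1.78 and 1.48. Lhx1 had the largest called change in PRC1CKO cells (3.91) and Foxa2 in PRC1CPM cells (2.87). Primitive endoderm genes, markers of the other extraembryonic lineage of the blastocyst, were called higher in 5 of 8 and 7 of 8, with medians of 1.56 each. Gata6 had the largest change in PRC1CKO cells (2.96) and Foxa2 in PRC1CPM cells (2.87), while Lama1, the most abundant per kb, was not called (-0.28 and -0.14). Of 9 pluripotency genes, 2 were called lower in PRC1CKO cells, and 1 lower and 1 higher in PRC1CPM cells. The medians were -0.22 and -0.14. When the gDNA-seq correction was not used, 1 was called lower and 3 higher in PRC1CPM cells, with a median of 0.16. On that scale 3 were called lower in PRC1CKO cells (median -0.37). Klf2 fell most, by 1.47 and 1.04, and Sox2, the most abundant per kb, fell by 0.89 in PRC1CKO cells. Pou5f1 had differences of -0.56 and -0.25, and Nanog of -0.22 and 0.37, none of them called.

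**Figure D4:**
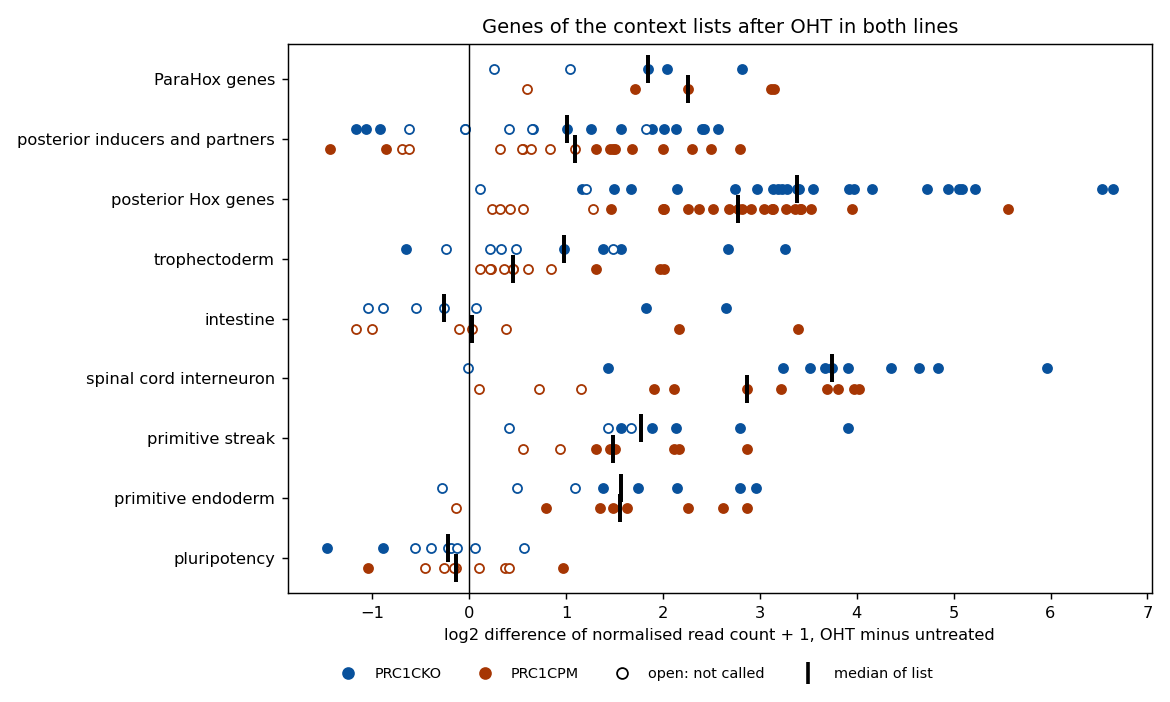
Log2 difference of OHT-treated against untreated cells (horizontal axis) for the tested genes of each list, with PRC1CKO in blue above PRC1CPM in brown, filled where called and with a black bar at the median of the list. The posterior Hox and spinal cord interneuron lists have the highest medians (3.38 and 3.74 in PRC1CKO cells), and the intestinal and pluripotency lists have medians near 0.

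The genes with the profile most like that of each tested gene were found by the root mean square difference between centred log2 profiles over the 12 libraries, among 15791 other tested genes. Edar was nearest to Cdx1 at 0.36, followed by Gfra3 at 0.40 and Epha3 at 0.42, against a median of 1.39. Edar went from 20.6 to 67.2 normalised reads in PRC1CKO and from 7.68 to 53.7 in PRC1CPM cells, at much lower counts than Cdx1. The genes nearest to Cdx2 were Hapln1 at 0.66, Rnase1 at 0.70 and Tenm1 at 0.70, against a median of 1.34, so its nearest profiles were less close than those of Cdx1. Among those nearest to Evx1 were Frzb at 0.63 and Gfra2 at 0.64, against a median of 1.62. Frzb went from 7.68 to 50.1 normalised reads in PRC1CKO and from 8.48 to 40.8 in PRC1CPM cells. Among the genes nearest to Cdx1, Evx1 ranked 512 and Cdx2 ranked 793, and among those nearest to Evx1, Cdx1 ranked 71 and Cdx2 ranked 315. Among the genes nearest to Cdx2, Cdx1 ranked 113 and Evx1 ranked 298.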

How the data were processed

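The authors removed rDNA reads with Bowtie 2, aligned 80 bp paired-end reads to concatenated mm10 and dm6 with STAR and then Bowtie 2, kept unique reads, removed PCR duplicates and counted reads over the gene bodies of 20633 transcripts. The deposited signal is this read count divided by 1 DESeq2 size factor per library, from the Drosophila reads and corrected by matched gDNA-seq. The deposited table also holds the authors' log2 fold changes and adjusted p-values, and a list of partially derepressed genes was deposited with it; neither was used. The 12 gDNA-seq samples were not analysed here.

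The counts that DESeq2 and edgeR need were recovered: 100% of values were whole reads within 0.02 of a read. The 16940 transcripts that reached 10 reads in 3 or more of the libraries were fitted with limma 3.58.1 (R 4.3.3) on log2(normalised read count + 1), with a mean per condition, all 12 libraries and no block. The prior variance followed the mean level, and p-values were adjusted by Benjamini-Hochberg. A call required a fold change over 1.5 together with an adjusted p below 0.05, and for interactions the adjusted p alone. For low genes the fold changes depend on the pseudocount. For Evx1 in PRC1CPM cells the log2 difference was 2.16, and 3.32 with a pseudocount of 0.1. Its fitted fold of 4.47 was above the ratio of its mean normalised read counts, which was 2.98. The fit was tested on simulated data.

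Every member was named. From each list the largest called change in each line, the most abundant gene per kb and genes needed as background were named, and the 3 nearest profiles of each tested member, of which 1 is not reported here. Fgf8, Dll1, Hoxb9, Vil1, Dbx2 and the genes named from the 150 kb windows were picked after their values were seen. The members and the lists were chosen with earlier results of these data known. Krt8, Krt18, Tpbpa, Muc2, Alpi, Nodal and Dppa3 were not analysed here. The study's methods call the replicates biological, but neither they nor the labels say what was separate between them, so p-values measure the spread between these samples, which may be technical. Alternatives were edgeR 4.0.16, DESeq2 1.42.0, TMM, the Drosophila size factors uncorrected by gDNA-seq, a pseudocount of 0.1, no filter, a fold change over 2, the replicate number as a block, fits of a single line and fits that left out 1 library. Leaving out all libraries of replicate 1, edgeR without a filter and the block combined with edgeR, no filter or another scale were chosen after seeing the data. Promoters are those of RefSeq on GRCm38.p6 (4 of the 5 genes were used), and exons those of its annotation. Python 3.11.15, pandas 2.3.3 and matplotlib 3.10.9 made summaries and plots.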

Additional observations from a re-analysis of the deposited data

How the results depend on the processing

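Of the 3 tested genes, the number called in PRC1CKO cells after OHT was 2, or 3 with that line alone and, through Evx2, with no filter under limma or edgeR, and 2 to 3 without 1 library each. In PRC1CPM cells 3 were called, but 1 with edgeR, DESeq2, TMM and no filter, 2 with a pseudocount of 0.1 and with edgeR and no filter, and 1 to 3 without 1 library each. Untreated, 1 differed between the lines, but 0 with DESeq2 and with no filter, 2 without the gDNA-seq correction and with edgeR and no filter, and 0 to 2 without 1 library each. With no filter the number includes Evx2 and Cdx4. The signs of some differences turned between settings. After OHT, Cdx1 between the lines became 0.042 without the gDNA-seq correction, and reached 0.21 without 1 library (lowest -0.39). Untreated, Evx1 between the lines became 0.58 with edgeR, 0.49 with DESeq2 and 0.57 with edgeR and no filter, and ran from -1.03 to 0.99 without 1 library. The interaction ran from -0.12 to 1.45 for Cdx2 and from -1.88 to 0.14 for Evx1 in those fits. The cause was not tested.

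Over all transcripts the calls moved by more than 1.5 times under some settings. Against 524 lower in PRC1CKO cells they ran from 271 to 1392, against 2226 higher and 237 lower in PRC1CPM cells from 1439 to 5115 and from 68 to 691, and against 212 and 37 between the lines after OHT from 81 to 2350 and from 17 to 365. Against 374 and 81 between the untreated lines they ran from 130 to 1631 and from 43 to 903, and against 0 and 4 for the interaction from 0 to 6776 and from 0 to 265.

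The labels number the replicates alike in the 4 conditions but do not say that a number marks a shared culture or day. Deviations of same-numbered libraries correlated with a mean r of 0.205 over 18 pairs (0.0988 to 0.438, 17 over 0.1), against -0.102 for other pairs, and each of the 12 libraries correlated best with its own number, a hint from the data that falls short of pairing. With the replicate block, the genes called in PRC1CKO cells were 3 with the gain of Cdx2 (adjusted p = 0.0126), and 4 with no filter, but 2 with TMM (Cdx2 at 0.0501) and without the gDNA-seq correction (0.0566). Between the lines after OHT the block called 1, Cdx2 (0.0184), also with edgeR (0.0046) and TMM (0.0323), and with no filter it called 1, Evx2 (0.0155), while Cdx2 was not called (0.0684), nor without the gDNA-seq correction (0.0503). In PRC1CPM cells after OHT the count stayed at 3. Untreated it called 2, with the gain of Cdx2 (2.18e-05), also with edgeR, TMM, no filter or no gDNA-seq correction. For the interaction it called 1, Cdx1 (0.000203), also in those 4 combinations. With the block, Cdx1 after OHT became 0.042 without the gDNA-seq correction and Evx1 untreated 0.48 with edgeR.

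Depth limits Cdx4 and Evx2, with at most 33 and 26 reads in a condition, and Evx1 before OHT, with 12 and 16 reads.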
